A study of Mus musculus with 18 samples.

Results

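The 10 genes studied here encode or mark the contents of neutrophil granules, and they were followed through the haematopoietic progenitor (HP) cells of murine fetal, newborn and adult bone marrow (BM). The list of 10 genes was given by name, and it makes up 10 of the 20275 genes of the deposited expression matrix. It was read in 3 groups: 4 genes of the primary granules (Elane, Mpo, Prtn3 and Ctsg), 4 genes of the secondary granules (Ltf, Lcn2, Camp and Ngp) and the 2 calprotectin genes (S100a8 and S100a9), whose products lie mainly in the cytosol. All 10 were measured in each of the 5 HP libraries.

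Neutrophils pack their granules in a fixed order as they mature. Primary (azurophil) granule genes are known to be transcribed at the promyelocyte step, when cells still divide, and to be shut off before the genes of the secondary (specific) granules come on in myelocytes and metamyelocytes. C/EBPε is the factor best known for the secondary step, while PU.1, C/EBPα and GFI1 act earlier. Among the members, Elane encodes neutrophil elastase, Prtn3 proteinase 3 and Ctsg cathepsin G, which are serine proteases, and Mpo encodes myeloperoxidase, which makes hypochlorous acid. Ltf encodes the iron-binding protein lactoferrin, Lcn2 the siderophore-binding lipocalin-2, Camp the cathelicidin antimicrobial peptide and Ngp a cystatin-related protein of neutrophil granules. S100a8 and S100a9 encode the calcium-binding subunits of calprotectin.

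The HP libraries were made with droplet 3′ RNA sequencing, together with antibody tags, from C57B6/J mice. Each held CD45+Lin-Kit+ BM cells, that is blood cells without the surface markers of mature lineages and with the receptor Kit, sorted on embryonic day 16.5 (E16.5), on embryonic day 18.5 (E18.5), on the day of birth (P0) or from adults. There were 2 libraries at E16.5 and 1 at each other stage, and cells came from several pooled mice. No mouse carried an engineered allele or received a treatment, and since the sort took Kit+ cells, mature neutrophils, which lack Kit, were not its target. The unit of all levels below is counts of unique molecular identifiers (UMIs, 1 per captured transcript) per 1000000 UMIs of the same cells, written CPM. A 3′ assay captures 1 end of each transcript, so levels need no correction for gene length. Intervals are 95% intervals for counting error only and leave out differences between animals.

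The 5 libraries held 560, 4752, 3477, 6208 and 5985 cells in the order E16.5 replicate 1, E16.5 replicate 2, E18.5, P0 and adult, with median depths of 23292, 18831, 12364, 19448 and 6747 UMIs per cell. The deposited annotation sorts the 20982 HP cells into 65 cluster codes, of which the codes starting with Neu and MyP matter most here. The libraries were not free of each other. A cell barcode that also occurred in another of the study's 9 libraries was carried by 334 of the 560 cells of E16.5 replicate 1 (59.6%), by 1.60% of E16.5 replicate 2, by 12.2% of E18.5, by 5.06% of P0 and by 13.2% of adult cells. Most shared barcodes, though not most pairs of libraries, were deep on one side and shallow on the other: the 330 barcodes shared by E16.5 replicate 1 and the adult library had medians of 30840 UMIs in the former and 668 in the latter. Values that rest on such cells are therefore given with and without them. Leaving them out removed both sides of a pair whatever their depth. In E16.5 replicate 1 and E18.5 this was mostly the deep side. The 375 barcodes that E18.5 shared with the adult had medians of 52117 UMIs at E18.5 and 497 in the adult. The shallow side lay in codes such as adult Mast4i, with 96.5% of its cells shared and a median of 667 UMIs.

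The 10 genes lie on 6 chromosomes of the mouse genome (RefSeq annotation of GRCm38.p6, the same build as the mm10 reference of the counts). The primary genes Prtn3 (chr10:79879667-79883174, plus strand) and Elane (chr10:79886312-79888216, plus strand) are direct neighbours 3137 bases apart with 0 protein-coding genes between them. Mpo lies at chr11:87793784-87804412 (plus) and Ctsg at chr14:56099885-56102574 (minus). Of the secondary genes, Camp (chr9:109847377-109849456, minus), Ngp (chr9:110419808-110423012, plus) and Ltf (chr9:111019292-111042766, plus) lie on 1 chromosome, 570 kb apart with 8 protein-coding genes between the first pair and 596 kb apart with 20 genes between the second pair. Lcn2 lies at chr2:32384637-32387739 (minus). S100a8 (chr3:90669071-90670034, plus) and S100a9 (chr3:90692630-90695721, minus) are neighbours 22.6 kb apart with 0 protein-coding genes between them.

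The proximal promoters of 4 members are shown because the 2 granule groups separated in the cells, as described below, and because they held letters of a PU.1 or a C/EBP motif. The C/EBP motif was searched without telling C/EBPα from C/EBPε. Each run is 150 bases long, ends at the base before the RefSeq start of the gene on GRCm38.p6, and is printed 5′ to 3′ on the plus strand, which is the coding strand of all 4 genes. Capitals mark GAGGAAGT, a PU.1 motif, in Elane (chr10:79886162-79886311) and Prtn3 (chr10:79879517-79879666), and TTGCNNAA or its reverse complement TTNNGCAA, a C/EBP motif, in Ngp (chr9:110419658-110419807) and Ltf (chr9:111019142-111019291).
Elane: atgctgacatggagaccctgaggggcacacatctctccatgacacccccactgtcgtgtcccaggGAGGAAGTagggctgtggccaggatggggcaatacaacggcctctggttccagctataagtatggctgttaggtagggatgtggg
Prtn3: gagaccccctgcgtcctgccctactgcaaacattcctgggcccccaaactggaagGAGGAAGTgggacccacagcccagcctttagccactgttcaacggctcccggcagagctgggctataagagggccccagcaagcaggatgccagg
Ngp: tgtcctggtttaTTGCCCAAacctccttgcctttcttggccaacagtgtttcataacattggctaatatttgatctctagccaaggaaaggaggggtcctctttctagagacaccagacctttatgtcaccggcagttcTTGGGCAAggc
Ltf: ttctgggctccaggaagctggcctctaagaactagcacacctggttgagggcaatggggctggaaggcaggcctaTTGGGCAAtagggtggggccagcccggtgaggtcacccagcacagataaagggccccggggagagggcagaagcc

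These 2 motifs were picked after their matches had been seen, from 10 motifs searched on both strands in the 250 bases before the start of all 10 members. GAGGAAGT occurred in 3 of 4 primary genes, 85 bases upstream of the start in Elane, 95 in Prtn3 and 224 in Mpo, in 0 of 4 secondary genes, and on the other strand of S100a8, 172 bases upstream. It occurred in 2.44% of 32851 RefSeq promoter windows of the same length. TTGCNNAA occurred in 0 of 4 primary and 3 of 4 secondary genes, 75 bases upstream in Ltf, 216 in Lcn2 and 138 and 11 in Ngp, and in S100a9, 236 bases upstream, against 9.56% of all windows. Ctsg and Camp held neither. No member held both. GAGGAAGT contains the letters of a shorter PU.1 motif, GAGGAA, and of an ETS motif, GGAAGT, that were also searched. GAGGAA occurred in 4 of 4 primary genes and in 2 of 4 secondary genes, Ltf and Lcn2, against 23.3% of all windows. GGAAGT occurred in 4 of 4 primary and 0 of 4 secondary genes, against 19.7%. All matches are letters in a window, not measured binding.

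In the summed libraries the primary genes stood higher at each later stage, while the secondary genes stayed low in the 4 fetal and newborn libraries and stood far higher in the adult one. Elane was measured at 51.7 and 171 CPM in the 2 libraries from E16.5, 600 in E18.5, 967 in P0 and 2078 in the adult library. Mpo was measured at 79.7, 158, 1140, 1548 and 2351 CPM in the same order. Prtn3 went through 113, 270, 1090, 1603 and 3273 CPM. For each of these genes the 2 E16.5 libraries were the lowest and the adult library the highest, and the share of all genes with this order was not counted.

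Ctsg, the third serine protease, took the values 114, 142, 680, 1028 and 1471 CPM. The summed primary level was 358 and 741 CPM in the E16.5 libraries, then 3510, 5146 and 9173 CPM.

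The secondary genes took another course. Ltf stood at 0.859 and 2.73 CPM at E16.5, then 20.5, 5.44 and 505 CPM. Lcn2 was at 11.2, 19.97, 65.4, 25.6 and 761 CPM. Camp was at 86.9, 150, 153, 159 and 6001 CPM. In P0 all but Camp were lower than in E18.5, and without the shared barcodes Camp was lower too, at 159.8 against 205 CPM. Over all cells the adult library exceeded every other library in all 4 genes.

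Ngp was measured at 36.3, 19.9, 89.0, 50.004 and 2515 CPM. S100a8 was measured at 208, 305, 1529, 1173 and 14123 CPM and S100a9 at 251, 506, 1234, 785 and 13794 CPM. As with Ltf, Lcn2 and Ngp, the E18.5 level of both calprotectin genes exceeded the P0 level and both E16.5 levels. The shared barcodes carried most of the signal of the smallest library: without them E16.5 replicate 1 had a summed primary level of 77.8 CPM, of which 68.6 CPM was Ctsg, 1.35 CPM of calprotectin and 0 secondary UMIs, which allows a level of up to 1.01 CPM. Without them E18.5 had 2714 CPM of primary and 438 CPM of secondary transcripts.

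**Figure D1:**
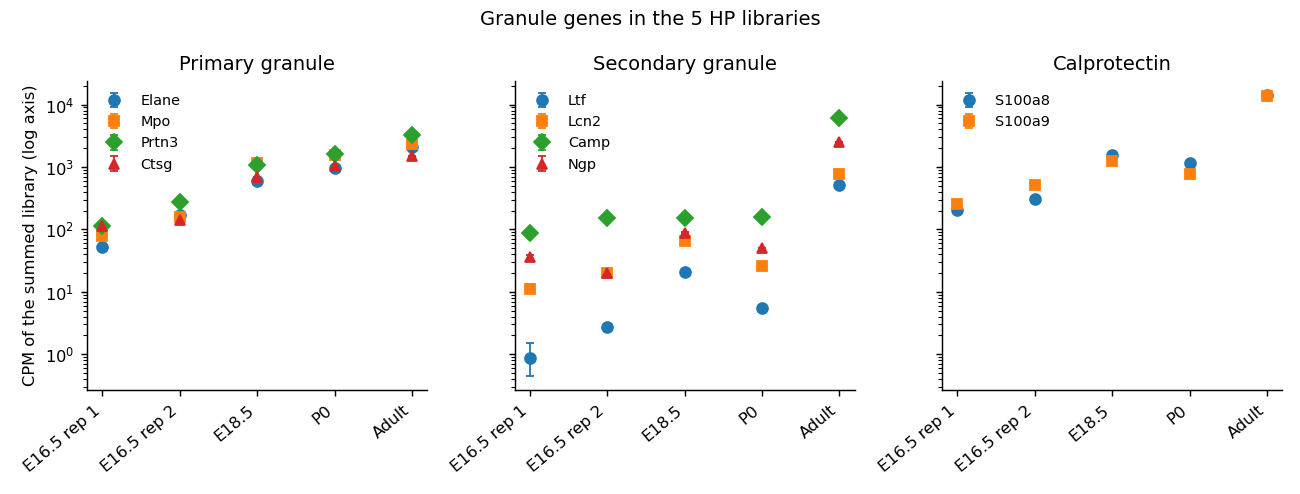
Level of each member in the 5 HP libraries, as CPM of the whole library on a log axis, with 95% counting intervals as bars where they exceed the symbols. Primary genes reach 1471 to 3273 CPM in the adult library by way of intermediate E18.5 and P0 values, whereas the secondary genes stay at or under 159 CPM in the 4 fetal and newborn libraries and reach 505 to 6001 CPM in the adult.

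The stages were compared on these library sums with edgeR's quasi-likelihood test over 16114 genes, in which the pair of E16.5 libraries gave the only residual degree of freedom. In a library sum, fewer cells of a type and less RNA per cell cannot be told apart. All 10 members were higher in the adult than at E16.5 at a Benjamini-Hochberg adjusted p under 0.05, where 2.35% of all genes were called in either direction and 1.35% as higher. The log2 fold changes of the secondary genes were 8.21 ± 0.79 (SE) for Ltf with an adjusted p of 0.00740, 6.68 ± 0.63 for Ngp (0.00740), 5.83 ± 0.66 for Camp (0.00866) and 5.77 ± 0.60 for Lcn2 (0.00764). Those of the primary genes were 4.47 ± 0.65 for Mpo with an adjusted p of 0.0186, 4.37 ± 0.79 for Elane (0.0394), 4.25 ± 0.70 for Prtn3 (0.0293) and 3.69 ± 0.54 for Ctsg (0.0186). The calprotectin genes had 5.95 ± 0.67 for S100a8 (adjusted p 0.00866) and 5.35 ± 0.72 for S100a9 (0.0143).

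At E18.5 edgeR called 0 of the 10 members against E16.5, beside 0.00621% of all genes, although 9 members had an unadjusted p under 0.05, beside 6.5% of all genes, and the DESeq2 Wald test called 7, beside 2.68%. The log2 fold changes were 2.30 for Ctsg, 2.31 for Elane, 2.39 for Prtn3 and 3.15 ± 0.63 for Mpo (adjusted p 0.180), and among the secondary genes 3.31 for Ltf, 1.95 for Lcn2, 1.59 for Ngp and 0.26 for Camp, with all but Camp at an unadjusted p under 0.05. At P0 edgeR again called 0 of 10, beside 0.292% of all genes in either direction and 0.168% as higher, with 5 members at an unadjusted p under 0.05, beside 8.49% of all genes, and 5 called by DESeq2, beside 3.74%. The primary genes had log2 fold changes of 2.99 (Ctsg) to 3.68 (Mpo, adjusted p 0.0901), and the secondary genes of 0.40 (Camp) to 1.49 (Ltf). With the shared barcodes left out, a setting chosen after seeing the data, edgeR called Ltf at E18.5, beside 0.663% of all genes, and Mpo and Ctsg at P0, beside 1.55%.

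The cluster codes that held these transcripts differed between libraries, and so did the set of codes. Neither E16.5 library has a MyP code. Neu1 of E16.5 replicate 2 had 3602 CPM of myeloid progenitor markers, beside 3838 in P0 MyP3 and 3091 in adult MyP5. A difference in share between stages therefore includes how cells were named in each library. At E16.5 the code Neu1, with 72 cells or 1.52% of replicate 2, held 84.9% of that library's primary UMIs and 99.2% of its secondary UMIs. In replicate 1, where Neu1 was 2 cells, it held 47.4% of primary and 99.7% of secondary UMIs, while the HSPC code held 26.4% and the mast cell codes 16.6% of the primary ones. Those shares rest on cells with shared barcodes: without them Neu1 had no cell left, the mast cell codes held 86.5% and the HSPC code 1.30% of the 230 remaining primary UMIs, and no secondary UMI remained. At E18.5 and P0 most primary transcripts lay in other codes than the Neu ones: the MyP codes held 85.4% of primary UMIs at E18.5 and 73.5% at P0, and the Neu2 code held 0.0185% and 0.00351%. The secondary UMIs of E18.5 lay to 60.7% in Neu2 and to 38.2% in the MyP codes, while at P0 the MyP codes held 86.5% and Neu2 11.2%. Without the shared barcodes the MyP codes of E18.5 held 81.7% of primary and 37.5% of secondary UMIs, and its Neu2 61.4% of the secondary ones. In the adult the MyP codes held 52.4% and the Mono codes 36.0% of primary UMIs, 19.3% being in Mono5, a code with 1214 CPM of myeloid progenitor against 748 CPM of monocyte and macrophage markers, while Neu3, 8.82% of the cells, held 5.29% of primary and 95.1% of secondary UMIs.

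Calprotectin UMIs followed the secondary ones, with 98.8% in Neu1 of E16.5 replicate 2, 52.7% in Neu2 and 45.7% in MyP codes at E18.5, 86.3% in MyP codes at P0 and 89.6% in Neu3 of the adult. The single genes were not uniform. At E18.5 MyP codes held 58.7% of Camp UMIs but 25.04% of Ngp, 18.5% of Lcn2 and 4.58% of Ltf UMIs, the rest lying mostly in Neu2. In E16.5 replicate 2 mast cell codes held 35.6% of Ctsg UMIs against 0.12% of Elane UMIs. At E18.5 and P0 Mpo was the primary gene with the smallest share in MyP codes, 75.7% and 62.7%, against 81.6% and 71.0% for Ctsg.

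**Figure D2:**
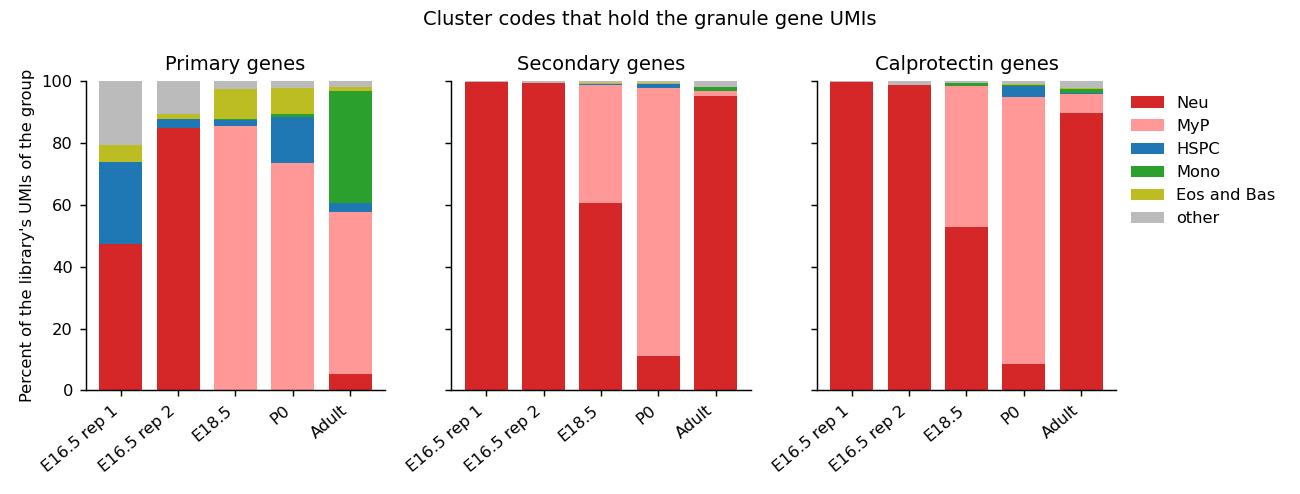
Share of the primary, secondary and calprotectin UMIs of each HP library that lay in the codes starting with Neu, MyP, HSPC, Mono, Eos or Bas and in all other codes, as stacked bars that add up to 100%. The Neu share of primary UMIs is 84.9% in E16.5 replicate 2 and 5.29% in the adult, while its share of secondary UMIs is 99.2% and 95.1%. Neither E16.5 library has a MyP code.

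Whether the Neu codes are neutrophil lineage cells was checked on 11 marker genes, none of them a member. At 10 CPM or more, 8 of the 11 were present in Neu1 of E16.5 replicate 2, 10 in Neu2 of E18.5, 11 in Neu2 of P0 and 10 in Neu3. In P0 Neu2 a single UMI amounts to 10.8 CPM, so any gene with a UMI counted as present there, and Gfi1 and Ms4a3 rest on 1 UMI each. The codes held different steps of the lineage by these markers. Ms4a3, a gene of granulocyte-monocyte progenitors and promyelocytes, stood at 1894 CPM in Neu1, 24.6 in E18.5 Neu2, 10.8 in P0 Neu2 and 337 in Neu3, and Retnlg, a gene of late neutrophils, stood at 10.3, 15915, 16406 and 41.8 CPM in the same order. Mmp8, the neutrophil collagenase, followed Retnlg with 9.84, 2388, 1854 and 1.55 CPM.

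The sorting receptor itself was low in E18.5 Neu2. Kit transcripts stood at 62.0 CPM (51.6-73.8) in Neu1 of E16.5 replicate 2 and 55.7 (49.8-62.1) in Neu3, but at 4.91 (0.595-17.7) in E18.5 Neu2, where the library as a whole had 127. In P0 Neu2 Kit stood at 43.4 CPM (11.8-111) from 4 UMIs, an interval that holds the values of Neu1 and Neu3. Neu1 also carried mast cell markers at 3199 CPM, because 9 of its 72 cells had 3915 to 41161 CPM of these markers and the other cells at most 844. Those 9 cells had 28349 CPM of primary and 2226 CPM of secondary transcripts, against 29901 and 10417 CPM in the remaining cells, and a median of 44069 against 25281 UMIs.

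The primary genes were graded across the codes. In all HSPC codes of at least 50 cells Mpo and Prtn3 exceeded Elane. Markers did not bear out the code's name everywhere: HSPC1 of E16.5 replicate 2 had 4610 CPM of mast cell and 4248 CPM of dendritic cell markers against 257 CPM of stem and progenitor markers, and P0 HSPC4 had 990 CPM of myeloid progenitor and 621 CPM of neutrophil markers against 300 CPM. TCell4 and Bcell1 of that E16.5 library also had 3614 and 1965 CPM of mast cell markers, but 61.1 and 88.6 CPM of dendritic cell markers. E18.5 MyP1 had 447 CPM of stem and progenitor against 152 CPM of myeloid progenitor markers, adult MyP4 had 1517 CPM of erythroid against 471 CPM of myeloid progenitor markers, and adult Mono6 had 9115 CPM of dendritic cell against 1546 CPM of monocyte and macrophage markers. Adult Mono5 had more myeloid progenitor than monocyte markers, as given above, and E18.5 Mono1ii had 11502 CPM of dendritic cell against 6893 CPM of monocyte markers. Eos/Bas1 of E16.5 replicate 2 had 4227 CPM of mast cell and 1490 CPM of basophil markers. TCell4 and Bcell1 of that library had 57.9 and 23.2 CPM of basophil markers, so Eos/Bas1 is not counted among these exceptions. In HSPC1 of E16.5 replicate 2 Elane stood at 29.3 CPM, Ctsg at 49.0, Mpo at 260 and Prtn3 at 292 CPM. In HSPC2 of E18.5 the values were 5.1, 32.6, 275 and 184 CPM in the same gene order. Its Elane level lay under the 5.93 CPM of the E18.5 B cells with shared barcodes counted. In HSPC5 of the adult they were 248, 628, 1005 and 1078 CPM. Elane there was near the 232 CPM of adult code Bcell3, while all adult B cell codes together had 121 CPM.

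At P0 the 3 HSPC codes made a series. Elane stood at 16.4 CPM in HSPC2, 55.2 in HSPC3 and 1696 in HSPC4, a code of 112 cells. Mpo went from 598 over 1023 to 2807 CPM in these codes, and Ctsg from 132 over 420 to 1754 CPM. The Elane level of HSPC2 lay under the 25.5 CPM of the P0 B cells.

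In the MyP codes the primary genes reached their highest levels after E16.5. E18.5 MyP1 (261 cells) had Elane at 67.0, Mpo at 1071, Prtn3 at 824 and Ctsg at 367 CPM, with a summed secondary level of 2.28 CPM. E18.5 MyP2 (226 cells) had 3654, 4379, 5507 and 3163 CPM of the primary genes. P0 MyP3 (355 cells) had 9183, 6591, 10017 and 5163 CPM, and adult MyP5 (502 cells) 8618, 8426, 12047 and 5300 CPM. The last pair resembled Neu1 of E16.5 replicate 2, where Elane stood at 7828, Mpo at 6248, Prtn3 at 11728 and Ctsg at 3830 CPM.

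Some codes with other names held single primary genes. The Eos and Bas codes, named by the annotation for eosinophils and basophils, varied. Several had more Mpo and Ctsg than Elane, with 2221 CPM of Mpo, 1147 of Ctsg and 121 of Elane in E18.5 Eos/Bas2, and 1580, 1268 and 54.8 CPM in P0 Bas2. Adult Eos/Bas4 had 2041, 2178 and 328 CPM. The P0 code EosP had the highest Mpo level of these, 4674 CPM, beside 906 CPM of Ctsg and 609 CPM of Elane. E18.5 Bas1 had 67.6 CPM of Mpo, near the 64.7 CPM of the B cells of that library with shared barcodes counted. Without them those B cells kept 135 of 394 UMIs of the 4 primary genes, against 257 of 264 in Bas1. Adult Mono4 and Mono5 had all 4 primary genes at 2498 to 5511 CPM, beside 1054 and 1214 CPM of myeloid progenitor markers.

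**Figure D3:**
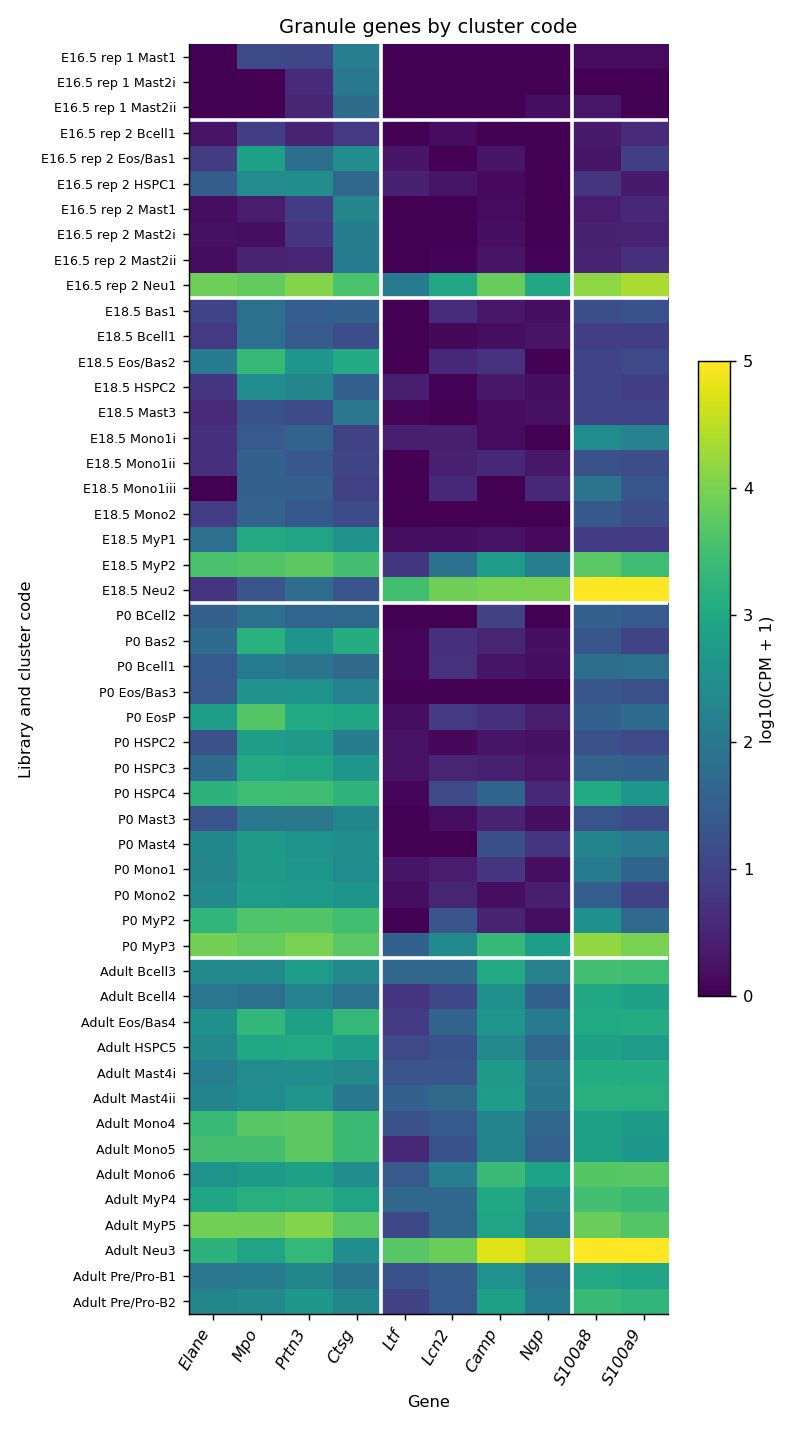
Level of the 10 members in each code of at least 50 cells from the Neu, MyP, HSPC, Mono, Eos, Bas, mast and B cell codes of each HP library, as log10(CPM + 1) in colour. The primary genes are high in Neu1 of E16.5 replicate 2, in MyP codes and in adult Mono codes, while the secondary genes are high in the Neu codes.

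The secondary genes were almost restricted to a few codes. Ltf stood at 118 CPM in Neu1 of E16.5 replicate 2, 3039 in E18.5 Neu2, 3915 in P0 Neu2 and 5012 in adult Neu3. Lcn2 stood at 935, 8326, 8154 and 7498 CPM in the same codes. Ltf was thus the secondary gene with the lowest level in each of these codes.

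Camp stood at 7030 CPM in Neu1, 9827 in E18.5 Neu2, 11050 in P0 Neu2 and 57391 in Neu3, and Ngp at 930, 10520, 13956 and 24757 CPM. In Neu1 Camp was the leading secondary gene by a wide margin, whereas in Neu2 Camp, Ngp and Lcn2 lay close together. Both E16.5 replicate 1 cells of Neu1 carried shared barcodes. Outside the Neu codes, the highest sums of the 4 were in adult Mono6 (176 cells), with 3573 CPM, and in P0 MyP3, with 3136 CPM. The latter had Camp at 2260, Ngp at 602, Lcn2 at 238 and Ltf at 35.5 CPM. In the adult library Camp stood at 2615 CPM in Mono6 and at 1806 CPM in the Stroma code (56 cells). How far free RNA sets the Mono6 level was not tested.

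S100a8 and S100a9 made up a large part of all transcripts in the late codes. S100a8 stood at 14202 CPM in Neu1 of E16.5 replicate 2, 108800 in E18.5 Neu2, 102113 in P0 Neu2 and 126549 in Neu3, and S100a9 at 23537, 123276, 127672 and 128030 CPM. In P0 MyP3 they were at 15168 and 10007 CPM and in E18.5 MyP1 at 6.3 and 6.8 CPM. S100a9 exceeded S100a8 in every Neu code, and S100a8 exceeded S100a9 in MyP2 of both stages, in MyP3 and in MyP5.

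B cell codes, which should lack granule transcripts, served as a measure of free RNA. Their summed primary, secondary and calprotectin levels were 16.2, 0.438 and 4.38 CPM in E16.5 replicate 2, 111, 1.70 and 15.0 CPM at E18.5 and 273, 6.03 and 129 CPM at P0. In the adult they were 634, 610 and 2643 CPM in 1139 cells with a median of 2907 UMIs, with 1390 CPM of secondary transcripts in code Bcell3 and 2025 CPM in the T/NK code, so adult levels of that order cannot be told apart from background. The summed primary level of Neu2, 103 CPM at E18.5 and 249 CPM at P0, was not above the B cell level of its library. At E18.5 that B cell level rests largely on shared barcodes. Without them 135 of the 394 primary UMIs were left in 139 of the 152 B cells, but 40 of 42 in Neu2. The order of the 2 levels at E18.5 thus depends on these barcodes. Depth differed too, with medians of 22806 UMIs in these B cells and 4366 in E18.5 Neu2.

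The ratio of primary to secondary UMIs put these levels on 1 scale. Over whole libraries it was 2.65 and 3.84 for E16.5, 10.7 for E18.5, or 6.19 without the shared barcodes, 21.5 for P0 and 0.938 for the adult. The value of E16.5 replicate 1 rests on cells with shared barcodes: without them 230 primary and 0 secondary UMIs were left, with a lower limit of 61.9 for the ratio. Within the Neu codes it was 3.29 (3.23-3.34) in E16.5 replicate 2, 3.43 without the 1 cell with a shared barcode and 2.87 without the 9 cells with mast cell markers. It was 1.26 in the 2 cells of replicate 1. In E18.5 Neu2 secondary UMIs exceeded primary ones 307-fold, with a ratio of 0.00325 (0.00234-0.00440), in P0 Neu2 149-fold and in adult Neu3 19.2-fold. The summed primary level of Neu2, 103 CPM at E18.5 and 249 at P0, was not above the 111 and 273 CPM of the B cells of these libraries. With shared barcodes counted, both Neu2 values are thus close to ratios to background. The E18.5 B cell level rests largely on such barcodes, as given above, so for E18.5 this reading holds only with them counted. The gap between the 2 Neu2 values is not read as a difference. Neu1 was the sole Neu code with more primary than secondary UMIs, and with S100a8 and S100a9 counted as secondary its log2 ratio over both E16.5 libraries turned from 1.63 to -0.72.

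The MyP codes lay on the other side. The ratio was 1021 in E18.5 MyP1, whose 2.28 CPM of secondary transcripts lay near the 1.70 CPM of the B cells of that library, so that this ratio is one to background. It was 20.9 in E18.5 MyP2, or 12.0 without its 79 cells with shared barcodes. At P0 it was 602 in MyP2, with 22.3 CPM of secondary transcripts against 6.03 in the B cells, and 9.87 in MyP3. In the adult it was 33.5 in MyP5 and 3.77 in MyP4, of whose 701 cells 361 had shared barcodes and whose median depth was 570 UMIs. Taken over all MyP codes of a library, the ratio was 23.9 at E18.5 in 487 cells (13.5 without the shared barcodes), 18.3 at P0 in 1004 cells and 31.1 in the adult in 1203 cells. The E18.5 and adult sums include MyP1 and MyP4, whose markers did not bear out the code's name. The adult MyP codes had 1042 CPM of secondary transcripts, where the adult B cells had 610 and their code Bcell3 1390 CPM. Bcell3 was shallower, with a median of 1903 UMIs against 16646.5 in MyP5. The adult code HSPC5, with a median of 7636 UMIs, held 1637 secondary UMIs of 5449281. How far background sets the adult ratios was not tested, and their order against the other stages is not read. With 1 library per stage, none of these has a replicate.

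**Figure D4:**
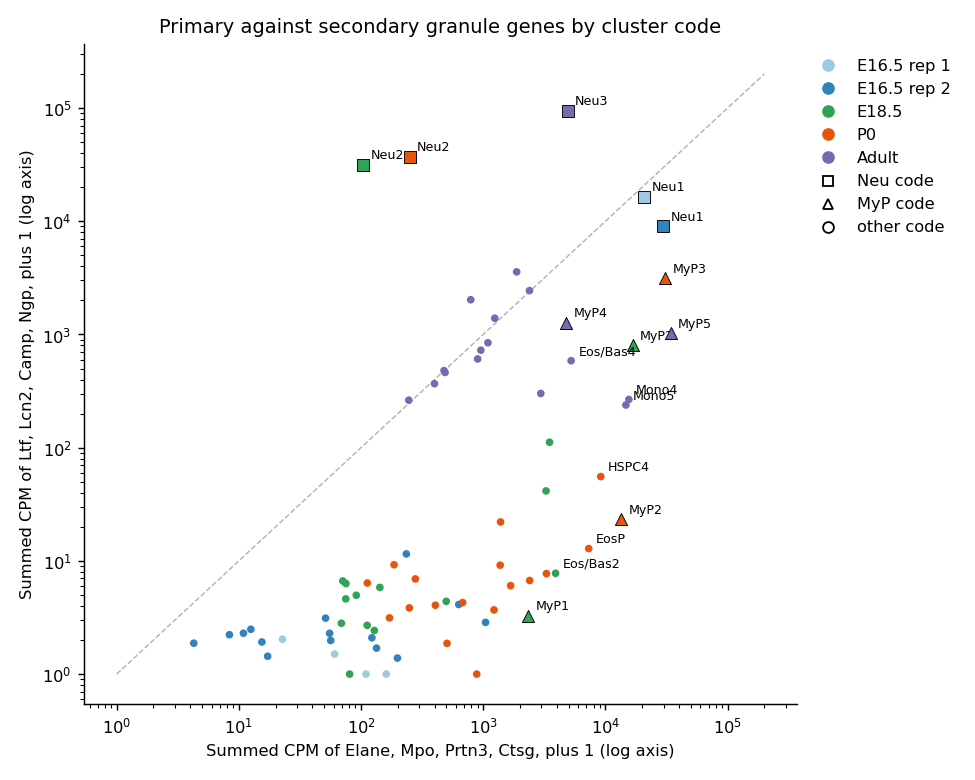
Summed secondary level (vertical) against summed primary level (horizontal) of 75 library-by-code groups with at least 50 cells or a Neu code, as CPM + 1 on log axes, coloured by library, with the dashed line marking equal levels. Neu1 of E16.5 replicate 2 lies below the line with a primary level in the range of the MyP codes, and the P0 and E18.5 Neu2 codes lie far above the line, at ratios of 0.00673 and 0.00325. Their primary levels are not above the B cells of their libraries with shared barcodes counted.

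Neu codes of different stages were then set side by side, with ratios of CPM and their counting intervals. A gene was tested where the 2 codes held at least 50 of its UMIs in all, and was counted as past 2-fold where its ratio was at least 2 or at most its inverse. Neu2 occurs at both E18.5 (71 cells) and P0 (28 cells), and there 0 of the 6 secondary and calprotectin genes were past 2-fold, against 7.87% of 991 genes, 2.72% higher at P0 and 5.15% lower. The P0 to E18.5 ratio was 1.33 (1.25-1.41) for Ngp, 1.29 (1.14-1.45) for Ltf, 1.12 (1.05-1.20) for Camp, 1.04 (1.01-1.06) for S100a9, 0.979 (0.904-1.06) for Lcn2 and 0.939 (0.918-0.960) for S100a8. The primary genes had too few UMIs, with 2 of Elane at E18.5 and 7 at P0.

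Adult Neu3 differed more from E18.5 Neu2, as did most genes, since 48.6% of 6869 genes were past 2-fold, 36% higher in the adult and 12.7% lower. Of the 10 members, 6 were higher in Neu3. Elane, Mpo, Prtn3 and Ctsg, with 2, 8, 24 and 8 UMIs at E18.5, passed the minimum of UMIs through Neu3 alone. Camp and Ngp had more than 50 UMIs in both codes. The ratio was 352 for Elane (97.5-2910, on 2 UMIs at E18.5), 42.3 for Mpo (21.5-98.1), 35.5 for Prtn3 (23.8-55.4) and 14.3 for Ctsg (7.26-33.3). With shared barcodes counted, the levels of Elane (4.91 against 5.93 CPM) and Mpo (19.7 against 64.7) in Neu2 were not above those of the E18.5 B cells. With those barcodes counted, the Elane and Mpo ratios are then close to ratios to background. The summed primary level of those B cells rests largely on shared barcodes, and they were deeper than Neu2, as given above. Ctsg stood at 19.7 against 14.7 CPM in the B cells and Prtn3, on 24 UMIs, at 58.96 against 26.0 CPM. Of the secondary genes, Camp had a ratio of 5.84 (5.66-6.03) and Ngp of 2.35 (2.28-2.43), while Ltf had 1.65 (1.56-1.75) and Lcn2 0.901 (0.870-0.933). S100a8 and S100a9 had ratios of 1.16 and 1.04.

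Against P0 Neu2, 5 members were higher in Neu3, beside 55.8% of 6708 genes past 2-fold, 41.1% higher and 14.7% lower. Elane, Mpo, Prtn3 and Ctsg, with 7, 4, 6 and 6 UMIs in P0 Neu2, passed the minimum of UMIs through Neu3 alone. The ratios were 22.8 for Elane, 19.2 for Mpo, 32.2 for Prtn3, 4.33 for Ctsg (1.99-11.8) and 5.19 for Camp, and 1.77 for Ngp. When the B cell level of each library was subtracted, 3 members were counted, because Mpo and Prtn3 in P0 Neu2, at 43.4 and 65.1 CPM from 4 and 6 UMIs, lay under the B cell levels of 116 and 80.7 CPM and then gave no ratio. These 3 comparisons share their libraries, so their values are not independent of each other.

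A comparison chosen after seeing the data set E18.5 Neu2 against Neu1 of E16.5 replicate 2, where 66.7% of 5028 genes were past 2-fold, 12.9% higher and 53.9% lower at E18.5. All 4 primary genes were lower, Elane 1593-fold (441-13156), Mpo 318-fold (161-737), Prtn3 199-fold (134-311) and Ctsg 195-fold (98.8-452). With 2, 8, 24 and 8 UMIs in E18.5 Neu2, they passed the minimum of UMIs through Neu1 alone. With shared barcodes counted, Elane and Mpo in E18.5 Neu2 were again not above the B cells of its library, and Prtn3 was above them. Ltf was 25.9-fold higher (22.5-29.8), Ngp 11.3-fold, Lcn2 8.91-fold, S100a8 7.66-fold and S100a9 5.24-fold. Camp had a ratio of 1.40 (1.35-1.45) and was not past 2-fold.

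The MyP2 code, present at E18.5 and P0, was set side by side in the same way, also after seeing the data. Here 3.34% of 10143 genes were past 2-fold, 2.25% higher at P0 and 1.09% lower. None of the 4 primary genes was past 2-fold, with P0 to E18.5 ratios of 0.544 (Elane), 0.941 (Mpo), 0.790 (Prtn3) and 0.949 (Ctsg). All 6 other members were lower at P0: Camp 275-fold (198-396), Ngp 265-fold (139-582), Ltf 89.4-fold (15.4-3597, on 1 UMI at P0), S100a9 55.6-fold (52.0-59.6), S100a8 16.4-fold (16.0-16.9) and Lcn2 3.93-fold (3.45-4.48). The same 6 were lower without the shared barcodes. For 4 of the 6 the P0 value lay near or under the level of the P0 B cells, so that the fold is one to background: Ngp stood at 0.538 CPM in MyP2 and 0.532 in the B cells, Ltf at 0.0598 and 0.177, S100a9 at 50.9 and 68.5, and Camp at 2.09 and 1.24 CPM. Lcn2, at 19.7 against 4.08 CPM, and S100a8, at 321 against 60.5 CPM, lay above it. Ltf, Ngp and Camp, with 1, 9 and 35 UMIs in P0 MyP2, passed the minimum of UMIs through E18.5 alone. P0 has a further code, MyP3, which holds secondary and calprotectin transcripts, and E18.5 has none, so the borders of the code differ between the 2 libraries.

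Genes of the same pathway were counted from lists. The list of other secondary and tertiary granule genes has 14 members, among them Mmp8, Mmp9 (gelatinase B), Cybb (the oxidase subunit of specific granules) and Olfm4. In E18.5 Neu2 against Neu1, 12 of 14 were higher, 0 lower and 1 had too few UMIs, where 12.9% of all genes were higher. Among these 12, Mmp8 and Cd177, with 20 and 14 UMIs in Neu1, passed the minimum of UMIs through E18.5 Neu2 alone. In adult Neu3 against E18.5 Neu2, 1 was higher, Chil3 at 4570 against 528 CPM, and 7 were lower, where 12.7% of all genes were. Among those 7, Mmp8 stood at 1.55 against 2388 CPM, Mmp9 at 8.08 against 1120 and Olfm4 at 59.997 against 2707 CPM. The others were Chil1 at 130 against 558, Slpi at 176 against 1690, Hp at 851 against 2452 and Adam8 at 1.55 against 157 CPM. Mmp8 (9 UMIs in Neu3), Mmp9 and Adam8 passed the minimum of UMIs through E18.5 Neu2 alone. Of the secondary members Ltf, Lcn2, Camp and Ngp, none was past 2-fold lower in Neu3.

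Of 8 proliferation genes, 8 were lower in E18.5 Neu2 than in Neu1 and 8 were higher in Neu3 than in E18.5 Neu2, with Mki67 at 618 against 81.1 CPM, where 53.9% of all genes were lower in the first and 36% higher in the second comparison. Of 10 regulators, 4 were higher and 3 lower in Neu3 against E18.5 Neu2, where 36% and 12.7% of all genes were, with Gfi1 at 29.7 against 4.91 CPM and Spi1, the gene of PU.1, at 190 against 523 CPM. Also higher were Cebpa (16.7 against 7.37), Irf8 (11.0 against 2.46) and Myb (94.2 against 7.37 CPM), and also lower were Cebpb (153 against 457) and Csf3r (46.9 against 432 CPM). The 4 higher regulators stood at 7.37 CPM or less in E18.5 Neu2, where Gfi1 had 2 UMIs. They passed the minimum of UMIs through Neu3 alone. Cebpe stood at 562 CPM in Neu1, 324 in E18.5 Neu2, 152 in P0 Neu2 and 404 in Neu3. Between P0 and E18.5 MyP2, 0 of 10 regulators, 0 of 8 proliferation genes and 0 of 6 other primary genes were past 2-fold. Of the 14 secondary and tertiary genes, 5 had too few UMIs, 4 were not past 2-fold and 5 were lower at P0 (Itgam, Chil3, Chil1, Olfm4 and Pglyrp1), as were 1.09% of all genes tested. In the library sums edgeR tested 13 of these 14, all but Ptx3, and called 6 (Cd177, Chil3, Chil1, Pglyrp1, Slpi and Hp) and 1 of the 10 regulators (Cebpe) higher in the adult than at E16.5, and 0 of the 6 other primary genes, beside the 1.35% of all genes called higher. Of these 6, most lay below their E16.5 level, namely 4, 5 and 4 in the order E18.5, P0 and adult, with Prss57 above it throughout. Their median log2 fold changes were -1.40, -1.52 and -1.59, against medians of all genes of -0.0040, 0.019 and 0.0059. Mast cell codes held 259 of the 560 cells of E16.5 replicate 1 and 1804 of the 4752 cells of replicate 2. How far those cells set the E16.5 level of this list was not tested. None of the 6 was called lower, and Ctsc, the gene of the protease that activates the granule proteases, had the smallest adjusted p, 0.0652, in the adult at -3.19 ± 0.66.

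The cells of each Neu code were then ordered by their own share of secondary UMIs, read from 1000 UMIs drawn from each cell, and cut into 4 bins. The bins of Neu1 and E18.5 Neu2, with under 100 cells, were added after seeing the data. The secondary level rises by construction, and the primary level is what the order shows. In Neu1 of E16.5 replicate 2 the summed secondary level went from 98.1 over 670 and 10568 to 34012 CPM, and the primary level from 35434 (34960-35913) over 33743 and 27577 to 16789 (16374-17211) CPM. The lowest bin thus had 2.11 times the primary level of the highest, and the last bin held both granule groups at high levels. The genes fell apart in this order: Ctsg went from 6094 to 422 CPM and Mpo from 7918 to 2738, but Prtn3 from 12710 to 8838 CPM. Monocyte and macrophage markers went from 213 to 24.3 CPM over these bins, and their part in the result was not tested.

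Cebpe went from 298 to 981 CPM over the same bins. The summed list of 6 other primary granule genes did not fall with the primary members, at 6972 CPM in the first and 8924 CPM in the last bin. In adult Neu3, with 521 cells, the secondary level went from 52844 to 134685 CPM and the primary level from 11710 over 3900 and 1294 to 562 CPM. The last bin of this 20.9-fold range lay under the 634 CPM of adult B cells, so background may set its lower end. Those B cells were shallower, with a median of 2907 UMIs against 9294.5 in that bin. Elane went from 4124 to 150 CPM, while the 6 other primary granule genes together went from 5339 to 7582 CPM. B cell markers were at 166 CPM in the first and 11.0 CPM in the last of these bins, and their part in the result was not tested. In E18.5 Neu2 the primary level was 77.2 to 144 CPM, around the 111 CPM of B cells in that library with shared barcodes counted. The log2 ratio of the highest to the lowest bin was -0.121 (-1.90 to 1.84), so the bins show no order of primary genes there. By the deposited phase calls, 94.4% to 100% of cells in the Neu1 bins and 90% to 97.7% in the Neu3 bins were in S or G2/M, against 5.56% to 22.2% in the E18.5 Neu2 bins. P0 Neu2 had too few cells for bins.

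**Figure D5:**
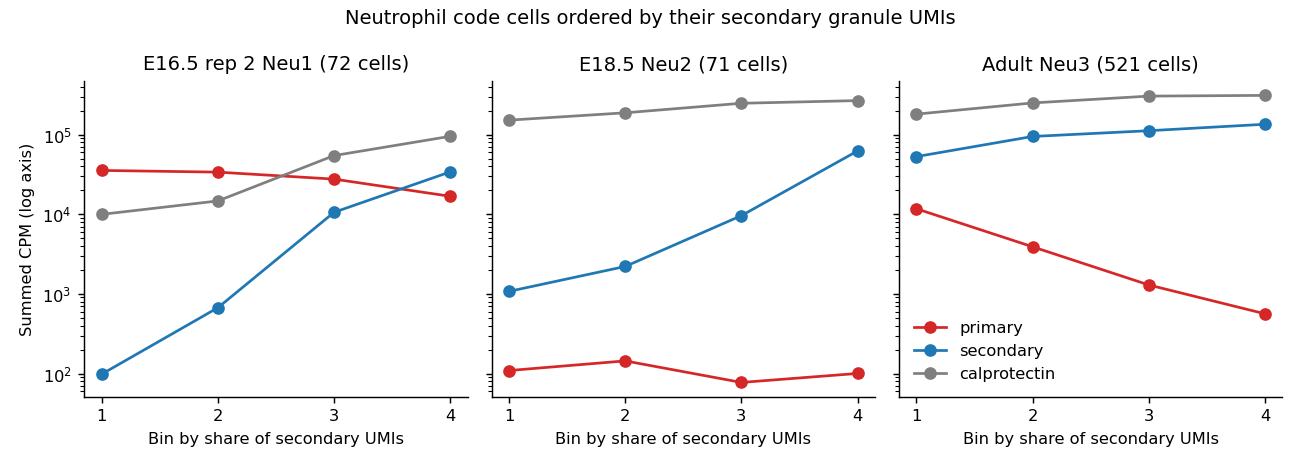
Summed primary, secondary and calprotectin level on a log axis in 4 bins of the cells of Neu1 (72 cells), Neu2 at E18.5 (71 cells) and Neu3 (521 cells), ordered by the share of secondary UMIs, which fixes the course of the secondary line. The primary level goes from 35434 to 16789 CPM in Neu1 and from 11710 to 562 CPM in Neu3. In Neu2 it lies between 77.2 and 144 CPM, around the 111 CPM of the B cells of that library with shared barcodes counted.

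Single cells held both kinds of transcript where the bins did. With each cell thinned to 1000 UMIs, 55.6% of the 72 Neu1 cells of E16.5 replicate 2 had a UMI of both groups, 41.7% had primary UMIs alone and 2.78% secondary UMIs alone. Among B cells of that library 0.552% had primary UMIs alone, 0.552% secondary UMIs alone and 0 of 181 both. In E18.5 Neu2 77.5% of cells had secondary UMIs alone. In E18.5 MyP2 87.6% had primary UMIs alone and 9.33% both, and in P0 MyP3 30.2% had both, against 1.85% in P0 MyP2. Of the 152 E18.5 B cells 0% had both and 3.29% primary UMIs alone. At P0 0% of the 326 Bcell1 and 0% of the 61 BCell2 cells had both, while 13.2% and 16.4% had primary UMIs alone.

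In adult Neu3 59.5% had both and 40.1% secondary UMIs alone, but 40.6% of the cells of adult code Bcell3 also had both, at a median depth of 1903 UMIs against 10212 before thinning. Of the single genes, a UMI of Elane was found in 94.4% of Neu1 cells, of Prtn3 in 97.2%, of Mpo in 90.3% and of Ctsg in 77.8%. For the secondary genes the shares were 56.9% for Camp, 37.5% for Lcn2, 23.6% for Ngp and 9.72% for Ltf. In E18.5 Neu2 the order was Lcn2 (87.3%), Camp (30.99%), Ngp (29.6%) and Ltf (22.5%). In Neu3 33.8% of cells had an Elane UMI against 18.1% of Bcell3 cells.

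Over the 73 library-by-code groups with at least 50 cells, primary genes went with each other more than with the rest, while calprotectin and the secondary genes were not separate. On log2(CPM + 10), the median Pearson r was 0.871 over the 6 pairs of primary genes, 0.931 over the 6 pairs of secondary genes and 0.419 over the 16 mixed pairs. S100a8 and S100a9 had an r of 0.990 with each other, and a median r of 0.908 (0.778 to 0.970) with secondary and 0.617 with primary genes, where pairs of secondary genes ranged from 0.835 to 0.971. Groups of 1 library share its depth and free RNA, so these are descriptions. Among 4397 ranked genes, a number that includes the members, the nearest genes outside the list were picked. Ms4a3 (0.9501), Svip (0.858), Alas1 (0.824), Lbp (0.821) and 1700020L24Rik (0.817) were most like the mean primary profile, and Chil3 (0.9501), Wfdc21 (0.942), Fcnb (0.833), Itgb2l (0.815) and Abca13 (0.806) most like the mean secondary profile.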

How the data were processed

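The authors sorted CD45+Lin-Kit+ BM cells, prepared droplet 3′ libraries with antibody tags, and deposited raw UMI counts per gene and cell for mRNA and raw counts per antibody and cell. Per the labels and the submitters' processing notes, mRNA reads were processed with Cell Ranger 3.1.0, R 4.0 and Seurat 3.1.5 on mm10. The tool behind the antibody counts was not given in the sources used here. The deposited cells had already passed the authors' filters, which dropped the cells with the most genes and UMIs as likely doublets, so no doublet caller was run here, and the cluster codes were taken from the deposited annotation. Shares of mitochondrial UMIs, module scores and stemness scores in that annotation were not used, and its cell cycle phase was used only for the bins.

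Here the counts were summed per library and code and divided by all UMIs of the same cells. Poisson, binomial and ratio intervals are exact 95% intervals. Library sums were tested with edgeR 4.0.16 (R 4.3.3, TMM scaling, filterByExpr for low counts, quasi-likelihood test, Benjamini-Hochberg adjustment), and DESeq2 1.42.0 was an alternative. The standard errors of the log2 fold changes were worked back from the F statistics. All other steps ran in Python 3.11.15. The E16.5 libraries are separate samples by their labels, but the study's methods describe the fetal and newborn libraries as pools of mice from several litters, state that the single-cell runs were not repeated, and do not say whether these 2 pools shared litters, so p-values measure only the spread between these 2 samples, which may be technical. Depth per library was 13974733, 95833532, 64849542, 127489333 and 59206442 UMIs in the order E16.5 replicate 1, E16.5 replicate 2, E18.5, P0 and adult. Of the cells, 27.5% at E18.5 and 17.0% in the adult held under 1000 UMIs.

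The 10 members, the pathway lists and the marker lists were chosen with earlier results of these data known. All members are named, pathway genes are counted as whole lists and were to be named where they differed at least 2-fold or where a result turned on them, of which examples rather than every gene are given, and the 5 genes nearest to each mean profile are named by Pearson r. Cells were thinned to 1000 UMIs for shares and for ordering, which left out shallower cells. The scripts for tests across genes were tested on simulated counts first. There edgeR recovered 14%, 11% and 10% of genes changed 4-fold, in the order E18.5, P0 and adult. Of genes changed 16-fold it recovered 90%, 94% and 85%, so most 4-fold changes went uncalled in that simulation. Alternatives left out cells under 1000 UMIs, single E16.5 libraries or shared barcodes, or changed the scaling, filter, tool, summary over cells, gene list, background, denominator, clusters or thinning depth. The clusters were recomputed with scanpy 1.11.5 without the granule genes. Antibody levels are centred log-ratio values per antibody within a library.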

Additional observations from a re-analysis of the deposited data

Results flagged for a closer look

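The 4 stromal libraries, sorted as CD45-Ter119- BM cells, were used in no comparison above, and they held granule transcripts above what a count of 0 would allow, which is 0.0154 to 0.0327 CPM. The 10 members summed to 1.57 CPM in the E16.5, 1.12 CPM in the E18.5, 5.01 CPM in the P0 and 11.9 CPM in the adult stromal library. Lcn2 made up 5.78 CPM in the adult library, where 51.0% of its 531 UMIs lay in the stromal code F8, and 1.99 CPM at P0, where 41.9% lay in code UD4. Prtn3 stood at 0.427 to 1.33 CPM. A level above that of a 0 count does not show that stromal cells express these genes, since the level of free RNA in these libraries was not measured. No group of 4 or more replicate libraries exists in which a single library could be set against the others.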

How the results depend on the processing

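No paired analysis was possible because replicate numbers occur within E16.5 alone. The log2 ratio of primary to secondary UMIs was 1.63 in Neu1 of both E16.5 libraries, -8.26 in Neu2 of E18.5, -7.22 in Neu2 of P0 and -4.26 in Neu3. With S100a8 and S100a9 counted as secondary genes it became -0.72, -11.32, -10.06 and -6.14, which turned the direction in Neu1. As a mean over cells it was 1.18, -7.01, -6.13 and -4.57. In Neu1 it was 2.79 and in Neu3 -3.98 as a mean over genes, 1.72 and -4.98 in recomputed clusters, and 1.78 and -4.24 without shared barcodes. The last 2 Neu1 values come from replicate 2 alone, whose deposited Neu1 also gave 1.72. Neu1 gave 1.44 without the cells with mast cell markers and 0.33 to 1.72 with either library left out, replicate 1 having 2 cells. Leaving out shared barcodes or cells with mast cell markers was chosen after seeing the data. Members past 2-fold in Neu3 over P0 Neu2 went from 5 to 3 with the B cell level subtracted, since Mpo and Prtn3 then gave no ratio, and the counts of the other 4 comparisons of codes kept within 1.5 times. In the adult bins the log2 ratio of highest to lowest primary level was -4.38, and -4.82 at 2000 UMIs.

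In the library sums edgeR called 1, 47 and 378 genes for E18.5, P0 and the adult. DESeq2 called 361, 561 and 1164, no filter on low counts gave 485, 713 and 1515, and leaving out shared barcodes gave 106, 248 and 748. RLE size factors gave 35 genes at E18.5 and 78 at P0. Members called went from 0 to 7 at E18.5 and 5 at P0 with DESeq2, to 7 and 4 with no filter, and to 1 and 2 without shared barcodes. All 10 were called in the adult under each of these. The log2 fold change of Camp at E18.5 was 0.26, and -0.12 to 0.73 with either E16.5 library left out. The causes of these shifts were not tested. With 1 residual degree of freedom the E18.5 and P0 calls depend on tool and filter, and E18.5, P0 and adult levels have no replicate. Shared barcodes limit E16.5 replicate 1 and the E18.5 MyP codes, although the cells left out of these 2 libraries were mostly the deep side of a pair. They also limit the shallow adult codes, and free RNA limits low adult levels.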

Other observations

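Antibody tags gave a second view of the codes that hold granule transcripts, on a centred log-ratio scale per antibody within a library. In E16.5 replicate 2, the one library with a wide panel, the 72 Neu1 cells had a mean Ly6C level of 1.37 (SD 0.855 over cells) against 0.390 (SD 0.404) in the 4680 other cells. CD16and32, the Fc receptors of granulocyte-monocyte progenitors, were at 1.12 against 0.840, and CD43 at 1.04 against 0.711. The 4 antibodies measured in all 5 libraries, CD48, CD150, CD135 and Ly6AE, each had a lower mean in the Neu code than in the rest of every library. CD48 was at 0.396 against 0.722 in E16.5 replicate 2, 0.260 against 0.975 at E18.5, 0.154 against 0.797 at P0, 0.565 against 0.855 in the adult, and 0.493 against 0.848 in the 2 cells of E16.5 replicate 1. At P0 CD150 was at 0.167 against 0.536 and Ly6AE at 0.236 against 0.789. Within E18.5 CD48 was 1.64 in MyP1, 1.17 in MyP2 and 0.260 in Neu2. Cells of 1 library are not replicates, so these are descriptions.

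When cells were clustered again without the granule genes, one cluster per library still gathered nearly the same cells: 73 cells in E16.5 replicate 2, of which 72 made up all of Neu1, 69 of the 71 Neu2 cells at E18.5, 27 of the 28 at P0 and 469 of the 528 Neu3 cells. The 2 Neu1 cells of E16.5 replicate 1 did not form such a cluster.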
